A study of Mus musculus with 2 samples.

Results

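The zinc finger cluster near the distal end of mouse chromosome 2 was described here in RNA from embryonic stem (ES) cells. Its members were all protein-coding genes of GENCODE release M21 that lie within chr2:174461072-178338492 of GRCm38 and had a row in the count table of both libraries. They were 50 of the 43629 genes with a row, 25 on each strand. Both libraries, replicates B and A, have the same genotype, a Dgcr8 knockout obtained by paired CRISPR/Cas9 cutting, and the same strain background (129/Ola) and passage (7). Polyadenylated RNA was sequenced on an Illumina HiSeq2000, and B held 30327146 counts and A 27872396. The series has 1 group of 2 libraries with no wild-type cells among them, so no value below is an effect of the knockout. The labels do not say whether B and A were separate cultures or whether the knockout is 1 clone. The ratio of B over A was already in view when the interval was proposed, so that ratio is given as a description of these libraries, with no test.

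Most genes of the interval encode zinc finger proteins of the Krüppel-associated box (KRAB) type. Such a protein reads DNA with an array of C2H2 zinc fingers, in which paired cysteines and histidines hold a zinc ion, and its KRAB domain recruits the corepressor Trim28. Trim28 in turn brings the histone methyltransferase Setdb1 and heterochromatin proteins, and in ES cells this machinery is known for silencing retroviral and other transposed elements. KRAB zinc finger genes arise by tandem duplication and stand in clusters, where neighbours can be almost identical in sequence.

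By their translated coding sequences, 36 of the 50 members held at least 3 C2H2 fingers and are called zinc finger members below. Their finger number ran from 3 in Gm14393 to 25 in Gm14295, with a median of 13, and 33 of the 36 also held a match to the KRAB A box. Another 6 members had a KRAB match but fewer than 3 fingers: Gm14440, Gm14288, 2210418O10Rik, Gm14435, Gm14296 and Gm14327. The remaining 8 were Atp5e, Prelid3b, Zfp831, Edn3, Gm11009, Gm14408, Zfp972 and Phactr3. Zfp831 and Zfp972 carry a zinc finger name but held fewer than 3 such matches.

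The likeness of these genes shows in their promoters, and 4 promoters are printed because they pair 3 transcribed members with 1 that had no count. Each is the RefSeq sequence of the 250 bases before the gene's start in GRCm38.p6, read 5′ to 3′ on the gene's strand, and the capitals mark the 30-base string found in most promoters of the cluster. Zfp971 is at chr2:178023034-178023283 on the plus strand, Gm14325 at chr2:177840337-177840586 on the minus strand, Gm14295 at chr2:176798350-176798599 on the plus strand and Gm2026 at chr2:175965105-175965354 on the plus strand. The last of them, Gm2026, was at 0 counts in both libraries. Of its 50-base transcript windows, 98.4% also occur in another gene, so its 0 counts may not mean that it was untranscribed.
Zfp971: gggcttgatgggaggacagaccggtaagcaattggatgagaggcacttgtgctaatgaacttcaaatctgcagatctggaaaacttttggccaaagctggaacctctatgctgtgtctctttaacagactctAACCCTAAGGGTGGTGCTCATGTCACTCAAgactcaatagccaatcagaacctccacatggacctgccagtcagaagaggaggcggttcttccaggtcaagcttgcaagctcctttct
Gm14325: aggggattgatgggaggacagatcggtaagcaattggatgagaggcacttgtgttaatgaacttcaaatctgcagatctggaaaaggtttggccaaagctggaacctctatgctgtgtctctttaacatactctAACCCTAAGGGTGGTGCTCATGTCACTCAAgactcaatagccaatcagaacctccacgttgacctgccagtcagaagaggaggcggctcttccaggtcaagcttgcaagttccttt
Gm14295: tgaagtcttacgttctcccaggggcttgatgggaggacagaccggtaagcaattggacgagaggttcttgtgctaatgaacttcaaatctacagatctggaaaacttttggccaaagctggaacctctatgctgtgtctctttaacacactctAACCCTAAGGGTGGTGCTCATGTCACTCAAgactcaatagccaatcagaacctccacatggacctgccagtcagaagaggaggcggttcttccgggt
Gm2026: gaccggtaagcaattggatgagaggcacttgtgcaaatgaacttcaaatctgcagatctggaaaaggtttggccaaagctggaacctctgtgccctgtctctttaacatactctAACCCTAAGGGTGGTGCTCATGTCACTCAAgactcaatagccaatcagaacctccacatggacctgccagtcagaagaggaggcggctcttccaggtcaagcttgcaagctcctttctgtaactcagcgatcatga

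RefSeq listed a promoter for 34 members, 29 of them zinc finger or KRAB members. The string AACCCTAAGGGTGGTGCTCATGTCACTCAA, chosen because it was the most frequent 30-base string in these promoters and searched on both strands, was present in 27 of those 29 and absent from Gm14393 and Gm14444. Over all 32851 promoters of the table it occurred in 31 (0.0944%), which belonged to 27 genes, none of them outside the cluster. The letters CCAAT on either strand were in 28 of the 29, against 33.8% of all promoters. Levels are in CPM, counts scaled to a library total of 1000000, and a gene is called transcribed below when it had at least 1 CPM in B, A or both. Among the 29 zinc finger and KRAB members, a promoter with the string was listed for 10 of the 12 that were transcribed and for all 17 under 1 CPM in both libraries. Gm4631, one of the 17, also has a listed promoter without it. The promoters of Atp5e, Prelid3b, Edn3, Gm11009 and Zfp972 did not hold it. Some neighbours had the same 250 bases throughout, namely Gm4724, Gm2026, Gm14434 and Gm14308 in one set and Zfp966 and Zfp967 in another.

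The coding sequences repeat in the same way, and a stretch of 2 adjacent fingers is printed for Gm14412, the member with the largest log2 ratio between libraries after a pseudocount of 0.5, and for Gm2007, which had no count. All 50-base transcript windows of Gm2007 also occur in another gene, so its 0 counts may not mean that it was untranscribed. Both stretches are coding bases 313 to 459 of the GENCODE transcript. The capitals mark only the codons of the paired cysteines and histidines of the C2H2 pattern.
Gm14412: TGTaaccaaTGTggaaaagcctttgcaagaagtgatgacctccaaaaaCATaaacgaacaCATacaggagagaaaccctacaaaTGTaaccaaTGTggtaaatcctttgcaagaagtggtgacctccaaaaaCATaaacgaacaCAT
Gm2007: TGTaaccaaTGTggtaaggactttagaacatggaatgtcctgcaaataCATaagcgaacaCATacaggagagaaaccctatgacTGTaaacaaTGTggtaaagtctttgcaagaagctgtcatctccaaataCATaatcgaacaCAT

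The linker between the fingers is the most repeated piece of the cluster, and 1 coding 30-base window that spans it occurred 221 times over 38 of the 42 zinc finger and KRAB members. Exact copies of whole coding sequences were present as well. Gm4631, Gm4724, Gm11007, Gm2007, Gm2026, Gm14434 and Gm14308 share 1 coding sequence of 1494 bases, and all 7 were at 0 counts in both libraries. Zfp968, Zfp969, Zfp966 and Zfp967 share one of 1455 bases, and of these Zfp966 had 7 counts in B and none in A, while the other 3 had none in either. The pairs Gm14391 and Gm6710, Zfp965 and Zfp973, Gm2004 and Gm14419, and 2210418O10Rik and Gm14296 are also identical in coding sequence.

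Because of this likeness, the share of a gene's transcript sequence that no other gene has was measured for every member. A window is a distinct stretch of 50 bases in any GENCODE transcript of the gene, and it was called shared when it also occurs, on either strand, in a transcript of another gene. The zinc finger members had a median of 85.8% shared windows, from 14.0% in Gm14443 to 100%. The median was 1.14% for the 596 zinc finger genes elsewhere in the genome and 6.42% for the 193 of these with a KRAB match. It was 0.620% for all protein-coding genes with a row. How reads that match several genes were counted is not given in the sources used here, so the counts of highly shared members are uncertain as levels of single genes.

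The labelled cell type was checked against its markers. All 5 ES cell genes tested stood at 313 to 1542 CPM in B and 473 to 1805 CPM in A. The 5 fibroblast genes summed to 27.1 CPM in B and 45.1 CPM in A, and 3 of the 5 reached 1 CPM in both. These 3 were lower in B, with Thy1 at 664 counts in B and 876 in A, Pdgfrb at 109 in B and 297 in A and Col1a1 at 37 in B and 81 in A. The collagen genes Col3a1, with 5 counts in B and 1 in A, and Col1a2, with 7 in B and 2 in A, were near 0. The 3 primitive endoderm genes summed to 3.43 CPM in B and 0.933 CPM in A, led by Gata6 with 71 counts in B and 19 in A. The blood genes Ptprc and Lyz2 had at most 5 counts. Dgcr8 itself held 1942 counts in B and 1253 in A. These gene counts do not show which exons the reads came from. All 9 genes of the KRAB corepressor machinery examined reached 1 CPM in both, with Trim28 at 2444 CPM in B and 2597 CPM in A and Setdb1 at 224 CPM in B and 175 CPM in A. They were not level between the libraries. Cbx5 stood at 974 CPM in B and 476 CPM in A. By CPM, Cbx1, Cbx3, Chd4, Atf7ip and Hdac2 were also higher in B, and Hdac1 was lower.

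A minority of the cluster's genes reached 1 CPM in both libraries. Of the 50 members, 19 (38.0%) reached 1 CPM in both libraries, where 55.8% of the 21474 protein-coding genes with a row did so. Among the 36 zinc finger members 16 reached 1 CPM in both, and Gm14444, Gm14406 and Zfp971 did so in B only. The other 17 zinc finger members stayed under 1 CPM in both libraries, 10 of them with no count at all, and these 17 held 23 counts in B and 5 in A together. Elsewhere in the genome 473 of 596 zinc finger genes (79.4%) reached 1 CPM in both libraries, and 158 of the 193 with a KRAB match (81.9%). The zinc finger members had a median of 85.8% shared windows, the 596 genes elsewhere 1.14% and the 193 with a KRAB match 6.42%. The part of shared sequence in the lower share of the members was not tested. None of the 6 KRAB members with fewer than 3 fingers reached 1 CPM in either library, and they held 40 counts in B and 20 in A.

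**Figure D1:**
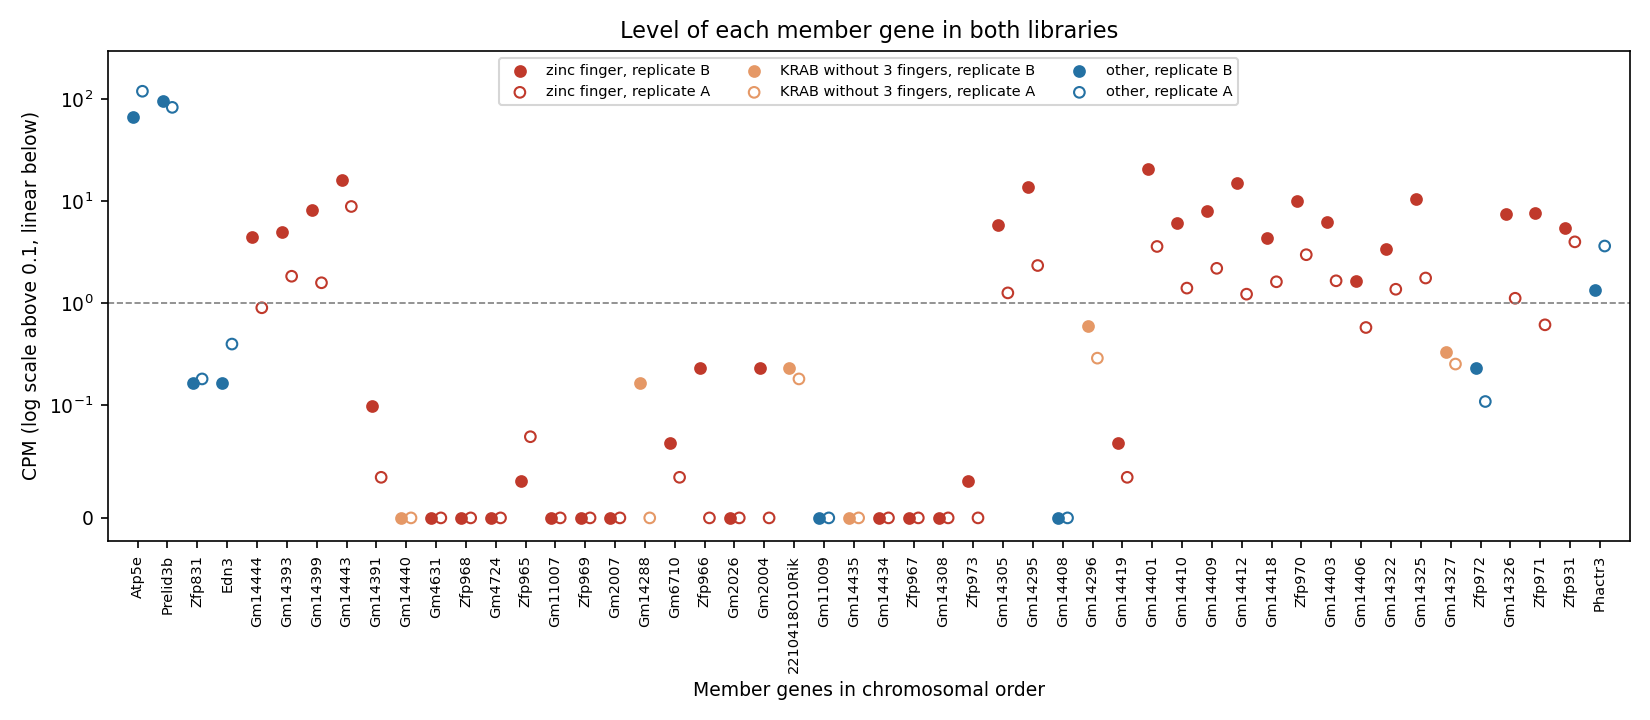
Level in CPM of the 50 members in chromosomal order, with filled points for replicate B and open points for replicate A and colours for the 3 classes of gene; the dashed line is 1 CPM, and the axis is logarithmic above 0.1 CPM and linear below. A run of 21 neighbours from Gm14391 to Zfp973 lies under the line, and the zinc finger members to its left and right lie mostly above it, with B above A.

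Many members with few counts stood side by side. The longest stretch of members under 1 CPM in both libraries was picked, so the low counts inside it follow from that choice. From Gm14391 to Zfp973, over chr2:175191065-176719085 or 1.53 Mb, all 21 consecutive members were under 1 CPM in both libraries, and 13 of them had no count in either. Together these 21 genes held 33 counts in B and 9 in A, and no single one exceeded 7 in B or 5 in A. The 22 zinc finger and KRAB members on the 2 sides of the run held 4878 counts in B and 1153 in A, and 19 of the 22 reached 1 CPM in at least one library. Of those 22, 4 lie before the run and 18 after it. Zfp831, Edn3, Gm14408, Gm14296, Gm14419, Gm14327 and Zfp972 were also under 1 CPM in both libraries and lie outside the run.

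This run of genes was rich in shared sequence. Its members had a median of 99.8% shared windows, 16 of the 21 were shared at 90% or more, and 10 had no window of their own. The 22 zinc finger and KRAB members outside it had a median of 64.1%. Across all 42 zinc finger and KRAB members, mean CPM and the shared percentage had a Spearman rho of -0.73. These points share the same 2 libraries and many share sequence. In the rest of the genome, 83.9% of the 704 protein-coding genes with at least 90% shared windows were at 0 counts in both libraries, as were 94.5% of the 327 with every window shared, against 15.9% of genes under 10% shared.

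Some genes in this stretch had few counts and also many windows that no other gene has. Windows were pooled over all annotated transcripts of a gene. Gm14391 had 4925 unshared windows and held 3 counts in B and 1 in A. Gm4631 had 2438 unshared windows and held 0 counts in both, which allows up to 0.0989 CPM in B and 0.108 CPM in A (3 counts, counting error only). No unshared window lies within the longest coding sequence of either gene, as both are identical to those of other members. Whether transcripts with the unshared windows were made was not tested. In all, 7 members of the run had 100 or more unshared windows, and they held 13 counts in B and 2 in A. A further scale divided all counts of a gene, also any from shared sequence, by its unshared windows alone. It therefore rises as unshared windows fall and does not measure the level of the unshared sequence. The highest of these 7 was at 0.767 CPM per 1000 unshared windows in B and 0.142 in A. The 19 transcribed zinc finger members ranged on the same scale from 3.10 to 38.0 in B and from 0.635 to 8.68 in A. Both sets were picked by their level, so these ranges are a description and their separation is not a result.

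**Figure D2:**
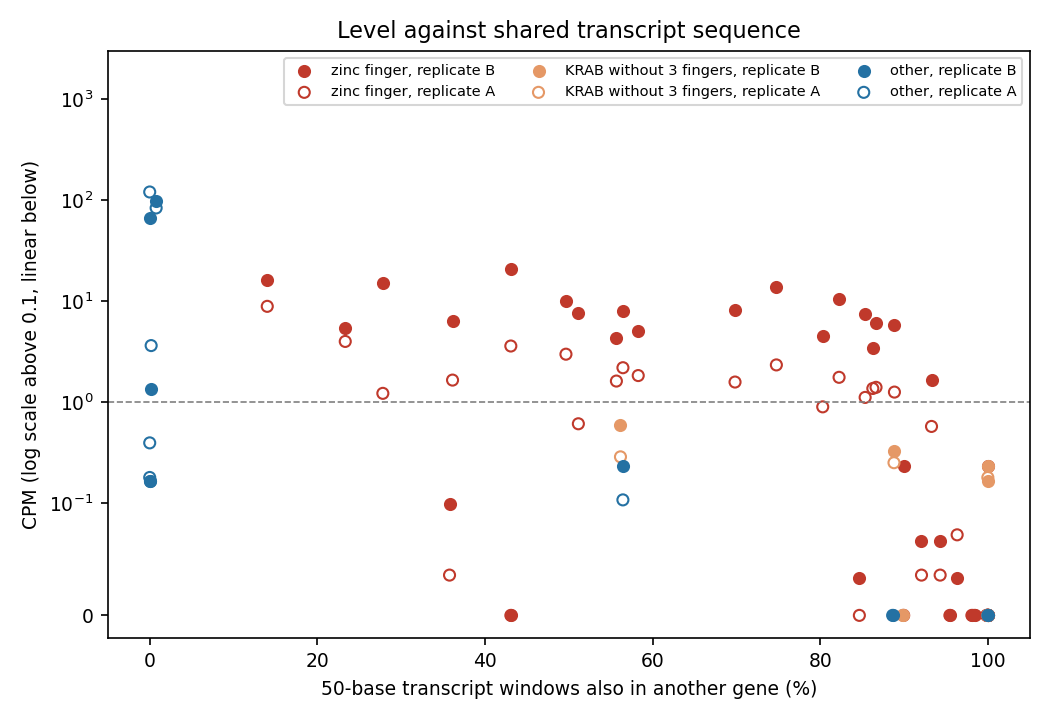
Level in CPM of each member (log scale above 0.1, linear below; B filled, A open) against the percentage of its 50-base transcript windows that also occur in another gene. Members with nearly all windows shared lie at or near 0, and so do Gm14391 (35.8% shared) and Gm4631 (43.1% shared).

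The transcribed zinc finger members were expressed at low to moderate levels. Scaled by exon length to RPKM (CPM per 1000 bases of exon), the 19 had a median of 3.33 in B and 0.772 in A, against a median of 6.38 for the means of the 11981 protein-coding genes that reached 1 CPM in both B and A. Gm14401, with 5 fingers, had the highest level, at 15.7 RPKM in B and 2.70 RPKM in A (mean 9.20 ± 9.20, SD, n = 2). Gm14412, with 15 fingers, followed at 9.47 RPKM in B and 0.772 RPKM in A (mean 5.12 ± 6.15, SD, n = 2). Gm14409 had 7.63 RPKM in B and 2.08 RPKM in A (mean 4.86 ± 3.92, SD, n = 2). The SD of each was nearly as large as its mean or larger, so their order is not separated from the spread between libraries. Gm14325 had 6.43 RPKM in B and 1.09 RPKM in A (mean 3.76 ± 3.78, SD, n = 2). Gm14393, with 3 fingers, had 5.35 RPKM in B and 1.95 RPKM in A, and its CPM averaged 3.42 ± 2.25 (SD, n = 2). Within A the highest member was Gm14401 as well, and the 19 spanned 0.284 to 2.70 RPKM there and 1.02 to 15.7 RPKM in B.

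Each of these 19 members had a higher CPM in B than in A, also after TMM scaling. With the same scaling, 7264 of the 14583 genes at 1 CPM or more in B, A or both were higher in B. So were 146 of 167 such KRAB zinc finger genes elsewhere. In bulk RNA, fewer cells with a transcript and less of it per cell cannot be told apart. Gm14412 had 454 counts in B and 34 in A, or 15.0 CPM (95% Poisson limits 13.6 to 16.4) and 1.22 CPM (0.845 to 1.70). The libraries' values lay far apart, with a TMM-scaled fold of 13.2 (95% counting interval 9.30 to 19.3) and a log2 ratio of 3.26. Zfp971 had 231 counts in B and 17 in A, a fold of 13.4 (8.20 to 23.4) and a log2 ratio of 2.95. Zfp971, Gm14444 and Gm14406 passed 1 CPM through B alone, so a higher value in B was part of their selection. Gm14401 had 633 counts in B and 100 in A, 6.25-fold (5.06 to 7.80) higher in B. Gm14295, the member with most fingers, had 413 counts in B and 65 in A, 6.28-fold (4.82 to 8.28) higher in B. Gm14326 had 228 counts in B and 31 in A, 7.27-fold (4.98 to 10.9) higher in B. These 5 were picked for the largest log2 ratios, so the size of their folds follows from that choice. Their counting intervals lay wholly above 4-fold, as did those of Gm14325 and Gm14399.

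The others followed in the same direction with smaller log2 ratios, though Gm14325, with a fold of 6.35 (4.69 to 8.77) before the pseudocount, was as high as Gm14401 and Gm14295. Gm14325 had 315 counts in B and 49 in A, Gm14399 had 250 in B and 44 in A, and Gm14305 had 176 in B and 35 in A. Gm14444 had 136 counts in B and 25 in A, Gm14410 had 185 in B and 39 in A, and Gm14409 had 243 in B and 61 in A. These 6 had log2 ratios between 1.75 and 2.36. Gm14403 had 191 counts in B and 46 in A, Zfp970 had 303 in B and 83 in A, and Gm14393 had 152 in B and 51 in A. Gm14418 had 131 counts in B and 45 in A, Gm14322 had 103 in B and 38 in A, and Gm14406 had 50 in B and 16 in A. Gm14406 was the lowest of the 19, and 93.3% of its windows were shared.

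At the lower end of the ratios stood Gm14443 and Zfp931, the zinc finger members with the least shared sequence. Gm14443, with 14.0% shared windows, had 490 counts in B and 247 in A, 1.96-fold (1.68 to 2.29) higher in B. Zfp931, the last zinc finger gene before Phactr3, with 23.3% shared windows, had 164 counts in B and 111 in A, 1.46-fold (1.14 to 1.87) higher in B. Both were below 2-fold on the log2 scale, at 0.93 and 0.49. Gm14412, by contrast, had 27.8% shared windows and the highest log2 ratio on that scale, so the ratio did not order the members by shared sequence. Over the 19 members the log2 ratio had a Pearson r of 0.10 and a Spearman rho of 0.06 with the shared percentage, 0.40 and 0.40 with finger number, and 0.42 and 0.18 with GC content. All of these points come from the same pair of libraries.

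Counted together, 17 of the 19 were at least 2-fold higher in B and none was 2-fold higher in A. Of all 14583 genes in the tables that met the same limit of 1 CPM in B, A or both, 6.8% were at least 2-fold higher in B and 7.18% at least 2-fold higher in A. The median log2 ratio of the 19 was 1.88, against a median of -0.00 and a 5th to 95th percentile range of -1.15 to 1.12 over all those genes. Of the 16 members that reached 1 CPM in both B and A, 14 were at least 2-fold higher in B, with a median log2 ratio of 1.82. The filter and the choice of the interval both bear on these counts, which are therefore not support for a difference. With library totals in place of TMM, the median of all those genes moved to -0.10 and that of the 19 to 1.80.

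**Figure D3:**
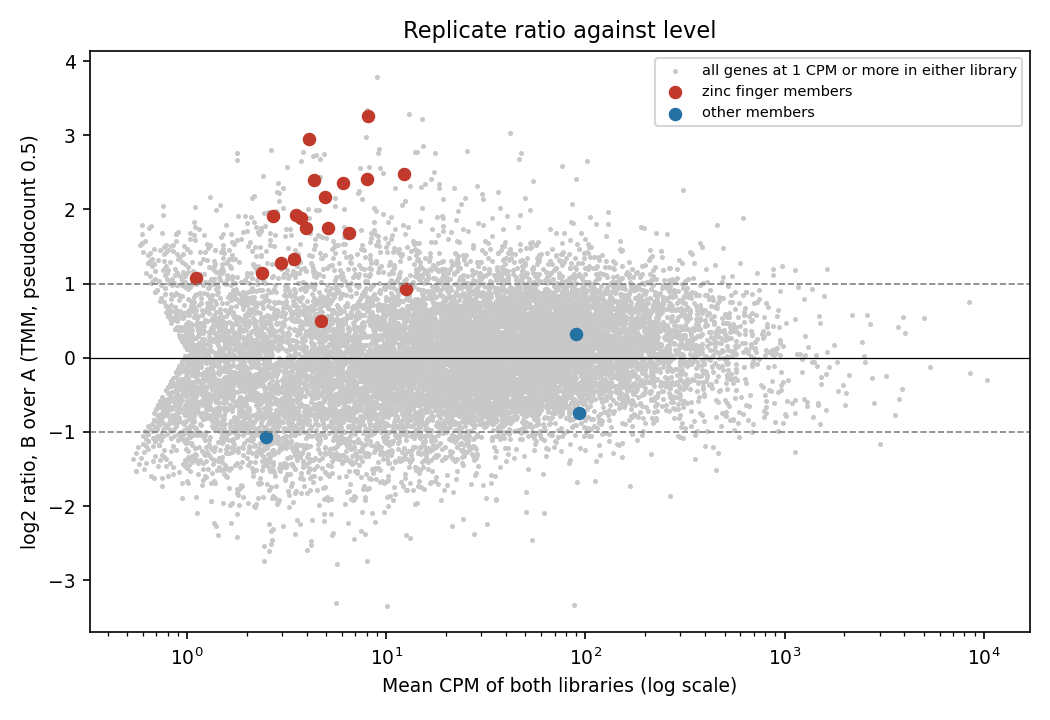
Log2 ratio of B over A (TMM-scaled CPM plus 0.5) against mean CPM (log scale) for all 14583 genes at or above 1 CPM in B, A or both (grey) and for the 19 zinc finger (red) and 3 other (blue) members among them; dashed lines mark 2-fold. The red points lie above 0, 17 of them above the upper line, and the blue points lie at -1.07, -0.74 and 0.32.

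GC content moved with the ratio in these libraries. Over all transcribed protein-coding genes the log2 ratio had a Spearman rho of -0.51 with transcript GC content, and the zinc finger members are GC-poor, with a median of 40.1% against 48.7% for all protein-coding genes with a row. The 1128 transcribed protein-coding genes outside the interval that lay in the GC range of the 19 members had a median log2 ratio of 0.52, and 17.9% of them were at least 2-fold higher in B. KRAB zinc finger genes elsewhere had a median of 0.66, with 48 of 167 (28.7%) at least 2-fold higher in B, and all zinc finger genes elsewhere one of 0.44, with 99 of 503 (19.7%). After a correction for GC content and length fitted over all transcribed protein-coding genes, the median of the 19 members was 1.71, with 15 at 1 or more on the log2 scale. The corrected medians were -0.04 for the genes in the same GC range, 0.21 for KRAB zinc finger genes elsewhere and 0.22 for all zinc finger genes elsewhere. Among the members, the correction took Gm14443 to 0.37 and Zfp931 to 0.00 and left Gm14412 at 2.99. The markers of other cell types given above also differed between B and A, and their part in the ratios was not tested.

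**Figure D4:**
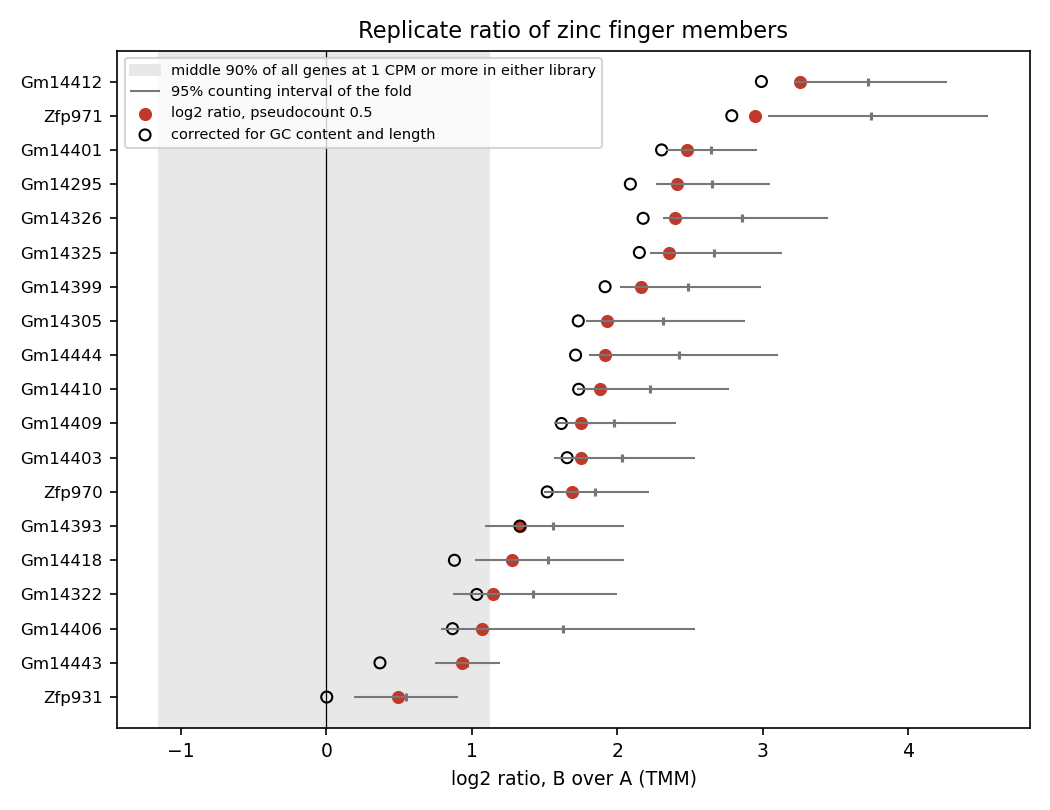
Log2 ratio of B over A for the 19 transcribed zinc finger members, sorted by size: red points with the pseudocount of 0.5, open points after correction for GC content and length, grey ticks and lines the fold without pseudocount and its 95% counting interval. The grey band is the middle 90% of all genes at or above 1 CPM in B, A or both, and the red points of Zfp931, Gm14443 and Gm14406 lie inside it.

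As sums, the zinc finger members held 4871 counts in B and 1142 in A, or 161 CPM and 41.0 CPM, a TMM-scaled ratio of 4.21. The other 14 members held 5053 counts in B and 5810 in A. The zinc finger members therefore made up 49.1% of all member counts in B (95% Clopper-Pearson interval 48.1% to 50.1%) and 16.4% in A (15.6% to 17.3%), a mean of 32.8% ± 23.1 (SD, n = 2). The intervals of B and A did not overlap, but like every interval here they hold for counting error alone and leave out the spread between libraries. As the reads carry no molecular identifiers, even that error may be understated.

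Genes alike in coding sequence differed in counts. By global alignment, the coding sequences most like that of Gm14412 were those of Zfp970 at 86.6% identity, Gm14326 at 85.0% and Gm14391 at 84.6%, the last identical with Gm6710. Zfp970 had 303 counts in B and 83 in A, and Gm14326 had 228 in B and 31 in A. Gm14391 had 3 counts in B and 1 in A. Reads from its coding sequence cannot be told apart from those of Gm6710, so these counts are uncertain as its level.

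The 3 transcribed genes outside the zinc finger class did not share a direction. At the start of the interval stand 2 genes for mitochondrial proteins with nearly no shared sequence. Atp5e, the epsilon subunit of the mitochondrial ATP synthase, had 37.9 RPKM in B and 68.4 RPKM in A (mean 53.1 ± 21.6, SD, n = 2), from 2016 counts in B and 3346 in A. Its log2 ratio was -0.74, lower in B. Prelid3b, a member of the PRELI family of lipid transfer proteins, had 52.1 RPKM in B and 44.8 RPKM in A (mean 48.5 ± 5.14, SD, n = 2), from 2939 counts in B and 2324 in A, and a log2 ratio of 0.32. These 2 genes stood far above every zinc finger member in both libraries. At its other end Phactr3, a regulator of protein phosphatase 1 and actin, had 41 counts in B and 101 in A (mean 0.388 ± 0.251 RPKM, SD, n = 2) and a log2 ratio of -1.07. Phactr3 was the only transcribed member at least 2-fold higher in A, 2.49-fold (1.72 to 3.68). The median log2 ratio of these 3 was -0.74, and with no level filter that of all 10 members outside the class with a count was 0.16.

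Next by length-scaled level came Gm14327, a KRAB member, with 10 counts in B and 7 in A (mean 0.200 ± 0.0383 RPKM, SD, n = 2), and Zfp972, with 7 counts in B and 3 in A (mean 0.196 ± 0.101 RPKM, SD, n = 2). Their loci overlap on opposite strands, so without a stated strand setting the reads of one cannot be told apart from those of the other. Edn3, which encodes the signalling peptide endothelin 3, had 5 counts in B and 11 in A, and Zfp831 had 5 in each. Of the 28 members under 1 CPM in both libraries, 14 had a count. The most counts were those of Gm14296 with 18 in B and 8 in A, then Gm14327, Edn3, 2210418O10Rik with 7 in B and 5 in A, and Zfp831 and Zfp972 with 10 each over both libraries. The 14 at 0 in both were the 7 genes with the coding sequence of 1494 bases named above, Zfp968, Zfp969, Zfp967, Gm14440, Gm11009, Gm14435 and Gm14408.

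Overlaps touch a few transcribed members. Gm14305 overlaps Zfp973 on the same strand, and Gm14393, Gm14401 and Zfp971 each overlap a noncoding gene on the opposite strand. Just outside the interval, Tubb1 had 2 counts in B and 16 in A and Ctsz had 1287 in B and 1919 in A on the near side. On the far side Sycp2 had 50 counts in B and 33 in A, and Ppp1r3d had 7 in B and 6 in A.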

How the data were processed

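The authors deposited whole-number counts per Ensembl gene, 1 table per library, with no normalization. The tools were featureCounts 1.4.5-p1 and STAR 2.4.2a and the build mm10, per the submitters' processing notes. The protocol was reverse-stranded, per the labels. The annotation release, strand setting and treatment of reads with several positions were not given in the sources used here. GENCODE M21 on GRCm38 gave names and positions for 42462 of 43629 identifiers (97.3%).

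CPM used library totals. Folds and log2 ratios of B over A used TMM factors over all rows (0.965 for B, 1.04 for A, edgeR 4.0.16 in R 4.3.3), and log2 ratios used CPM plus 0.5, which understates ratios of low genes. Fold intervals are exact conditional 95% intervals without the pseudocount, and they, like Poisson limits, cover counting error only. RPKM used merged exon length. The GC and length correction was a quadratic fit over protein-coding genes. Members and gene lists were chosen with earlier results of these data known, and no p-value was computed. With 2 libraries of 1 group, the SD may be technical.

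A genome sequence and a protein table were not used here. Shared sequence was measured between GENCODE transcripts, and finger, KRAB and likeness measures came from GENCODE coding sequences (C, 2 to 4 residues, C, 12 residues, H, 3 to 5 residues, H; Biopython 1.88). All members that reached 1 CPM in a library are named with their counts. Full values went to the 5 zinc finger and 5 other members of highest mean RPKM and the 5 zinc finger members of largest log2 ratio. A log2 ratio from library totals was checked on simulated Poisson counts. The check did not cover TMM scaling, the fold intervals or the GC and length correction. Alternatives were library totals, size factors of DESeq2 1.42.0, other level limits, pseudocounts, windows and finger minimums, and leaving out each library.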

Additional observations from a re-analysis of the deposited data

Results flagged for a closer look

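Signal was also present in rows of the interval that are not protein-coding. The 31 unprocessed pseudogenes held 310 counts in B and 60 in A. Most came from Gm14411 with 159 counts in B and 37 in A, Gm14421 with 62 in B and 4 in A, and Gm14387 with 38 in B and 1 in A, each of which reached 1 CPM in B. Their shared windows were 59.7%, 83.7% and 81.4%. The processed pseudogenes of the interval held 99 counts in B and 151 in A, led by Gm14414 with 62 in B and 99 in A. The part of reads from member genes in these counts was not tested.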

How the results depend on the processing

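Of 52 alternatives, 36 left a value within its limit (1.5 times for a count, 0.1 for a median log2 ratio, 5 points for a percentage of windows, 1 SD for the share of counts, which each of 2 libraries meets by construction). Members at the level limit in both libraries numbered 8 at 2 CPM and 10 at 1 RPKM in place of 19, and zinc finger members 6 at 2 CPM and 8 at 1 RPKM in place of 16. Leaving out a library gave 19 to 22 members and 16 to 19 zinc finger members. The share of counts in zinc finger members was 16.4% without B and 49.1% without A. The median log2 ratio of zinc finger members was 2.15 with a pseudocount of 0.1, 1.60 with 1 and 1.71 corrected for GC content and length. With no level filter it was 1.51 over the members with a count, and those at 0 in both libraries were left out. For the 10 with under 60% shared windows, a limit chosen after seeing the data, it was 1.72. The median of the other members with a count was 0.16 with no level filter in place of -0.74, since members of few counts then enter. Median shared windows of zinc finger members were 91.5%, 78.3% and 73.0% with windows of 30, 75 and 100 bases. Only 11 members have a symbol starting with Zfp, against 36 by finger number. No paired analysis was possible because the 2 libraries form 1 group. A level near 0.1 CPM rests on 3 counts, so depth limits statements on members with few counts.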
